A study of Mus musculus with 4 samples.

Results

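The comparison described here is that of bone marrow-derived macrophages labelled as from Sema6D-/- mice with those of wild-type mice in the absence of lipopolysaccharide (LPS), across protein-coding genes of the autosomes. Its members are the 9686 genes with at least 1 FPKM (fragments counted for a gene, scaled to transcript length and to the depth of the library) in either unstimulated library. They come from 24216 named genes in the files, of which 19599 are protein-coding and autosomal. The series holds 4 libraries of polyadenylated RNA, 1 unstimulated and 1 stimulated with LPS from each genotype. All came from C57BL/6 mice aged 7 weeks, and the cells were grown from bone marrow with M-CSF, the growth factor that drives macrophage differentiation. The stimulated cells received LPS at 100 ng/ml for 4 h. The treatment text of every library mentions LPS, and the titles alone separate the unstimulated libraries from the stimulated. Neither the targeting of the Sema6d gene nor the number of mice behind a library is given in the labels. With 1 library per group, the differences below cannot be set against replicates, and a gene is counted as higher or lower by size alone, at 2-fold or more.

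Sema6D is a transmembrane semaphorin. It serves as a ligand for class A plexins and can also signal into the cell that carries it, so-called reverse signalling, and the study's title places this signalling in macrophage polarization and lipid metabolism, between mTOR and PPAR gamma. PPAR gamma is a lipid-activated nuclear receptor that drives lipid uptake genes such as Cd36 and takes part in alternative activation of macrophages. Unstimulated macrophages also keep a low tonic output of type I interferon, which holds interferon-stimulated genes at a basal level through the factor ISGF3 and its DNA element, the interferon-stimulated response element.

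Because the genes of the interferon response stood out in size, the stretch of 250 bases before the start of 5 of them is shown, from RefSeq on GRCm38.p6. No coordinate of the deposited files, which were made on mm9, was used. Capitals mark matches to the core of the interferon-stimulated response element (GAAA, any 2 bases and GAAA again) and to an NF-kB motif (GGGA, any base, TT, any base and CC), on either strand. The sequences run 5′ to 3′ along the gene's own strand.
Cxcl10 (chr5:92348890-92349139, minus strand): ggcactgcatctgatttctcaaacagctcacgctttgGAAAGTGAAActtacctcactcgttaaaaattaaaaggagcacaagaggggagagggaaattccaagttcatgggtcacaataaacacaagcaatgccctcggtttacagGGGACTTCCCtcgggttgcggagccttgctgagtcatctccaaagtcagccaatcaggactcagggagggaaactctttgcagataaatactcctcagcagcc
Gbp2 (chr3:142620413-142620662, plus strand): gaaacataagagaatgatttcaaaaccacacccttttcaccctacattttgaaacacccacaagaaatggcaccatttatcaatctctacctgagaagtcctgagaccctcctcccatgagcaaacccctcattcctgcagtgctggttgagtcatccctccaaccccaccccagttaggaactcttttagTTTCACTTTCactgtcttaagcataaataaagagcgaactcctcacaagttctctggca
Gbp5 (chr3:142496684-142496933, plus strand): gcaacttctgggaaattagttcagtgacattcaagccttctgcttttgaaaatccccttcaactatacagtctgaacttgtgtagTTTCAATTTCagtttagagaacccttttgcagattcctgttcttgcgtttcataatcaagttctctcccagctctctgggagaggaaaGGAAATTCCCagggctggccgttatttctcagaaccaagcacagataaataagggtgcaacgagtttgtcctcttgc
Ifit1 (chr19:34640639-34640888, plus strand): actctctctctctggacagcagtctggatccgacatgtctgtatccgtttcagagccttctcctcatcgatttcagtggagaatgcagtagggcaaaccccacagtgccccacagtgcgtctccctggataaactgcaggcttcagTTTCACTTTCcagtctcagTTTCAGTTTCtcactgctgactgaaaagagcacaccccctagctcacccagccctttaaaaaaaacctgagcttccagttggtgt
Rsad2 (chr12:26456453-26456702, minus strand): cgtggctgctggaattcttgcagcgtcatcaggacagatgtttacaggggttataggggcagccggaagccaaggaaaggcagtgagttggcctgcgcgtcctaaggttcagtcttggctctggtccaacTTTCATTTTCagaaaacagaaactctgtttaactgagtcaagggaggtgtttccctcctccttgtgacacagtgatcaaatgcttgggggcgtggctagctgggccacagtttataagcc
Each of the 5 stretches holds the interferon element, Ifit1 in 2 copies, and those of Cxcl10 and Gbp5 also hold the NF-kB motif. These 5 were picked for show after their values were seen. In the whole RefSeq table, 2.98% of 32851 promoters held the interferon core in these 250 bases, and 2.86% of the 10101 promoters of the genes compared here. Among promoters of genes at least 2-fold higher the share was 10.6% (23 of 217), and among those of genes at least 2-fold lower it was 3.11% (5 of 161). Of those 23, 12 belong to the list of interferon-stimulated genes described below, so the 2 results overlap. Promoters of genes of that list not past 2-fold held the core in 25% (9 of 36). The NF-kB motif was in 0.98% of all promoters, in 1.26% of those of the genes compared, in 4.15% of those of the higher genes and in 1.86% of those of the lower genes. The AP-1 motif TGANTCA was in 6.75% of all promoters, in 4.45% of those of the genes compared, in 8.29% of those of the higher genes and in 10.6% of those of the lower genes. For the STAT motif TTCNNNGAA the shares were 7.02%, 6.01%, 8.76% and 8.07% in the same order. A promoter was in the table for 7915 of the 9686 genes, a gene can have several, and a match is a description of letters, not of binding.

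Some properties of the libraries bear on all that follows. Sema6d itself goes against the labels: it stood at 0.304 FPKM (56 fragments) in wild type and 0.563 FPKM (77 fragments) in the library labelled Sema6D-/-, both without LPS. With LPS the levels were 0.219 FPKM (20 fragments) and 0.592 FPKM (59 fragments). Fragments outside a deleted part would still be counted, so these low values check nothing about the allele, and every direction below rests on the labels. Genes of the sex chromosomes split by genotype as well: Xist was at 22.3 FPKM in wild type and 0.0333 FPKM in the labelled library, and the Y-linked Eif2s3y at 0.0207 and 33.5 FPKM. Genotype and this difference cannot be told apart, and the genes compared are autosomal. The smallest FPKM steps gave depths of 23429354 protein-coding fragments for wild type and 17157919 for the labelled library, and intervals printed below are 95% intervals for counting error only. Macrophage markers were high in both unstimulated libraries, among them Adgre1, which encodes F4/80, at 871 FPKM in wild type and 715 FPKM in the labelled library.

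The resting libraries were much alike. The log2 ratio of labelled Sema6D-/- over wild type, taken on FPKM with 1 FPKM added, had a median of 0.04 over the 9686 genes, and 88.0% (8523 genes) were within 1.5-fold. Of all genes, 214 (2.21%) were at least 2-fold higher in the labelled library, 168 (1.73%) were at least 2-fold lower, and 382 (3.94%) passed in either direction. With 0.1 FPKM added in place of 1 the counts were 346 higher and 286 lower, and with 5 FPKM added 99 and 60. At 4-fold they were 28 higher and 23 lower, with 1 FPKM added. The 2-fold counts of gene lists below are to be read against the 2.21% and 1.73% of all genes. The central 95% of ratios ran from −0.85 to 0.94, and log2 FPKM correlated across genes with Pearson's r = 0.966, where genes are not independent replicates. Of the members, 9258 reached 1 FPKM in both libraries, 194 in wild type only and 234 in the labelled library only, so genes of these last groups entered through the side where they are high. Just inside that limit were Psd (0.630 FPKM in wild type and 1.001 FPKM in the labelled library) and Cdkn2b (1.006 and 0.787 FPKM), and just outside it Lsm11 (0.709 and 0.999 FPKM). At 1 to 1.5 FPKM a gene had a median of 84.5 fragments in wild type and 66.3 in the labelled library.

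**Figure D1:**
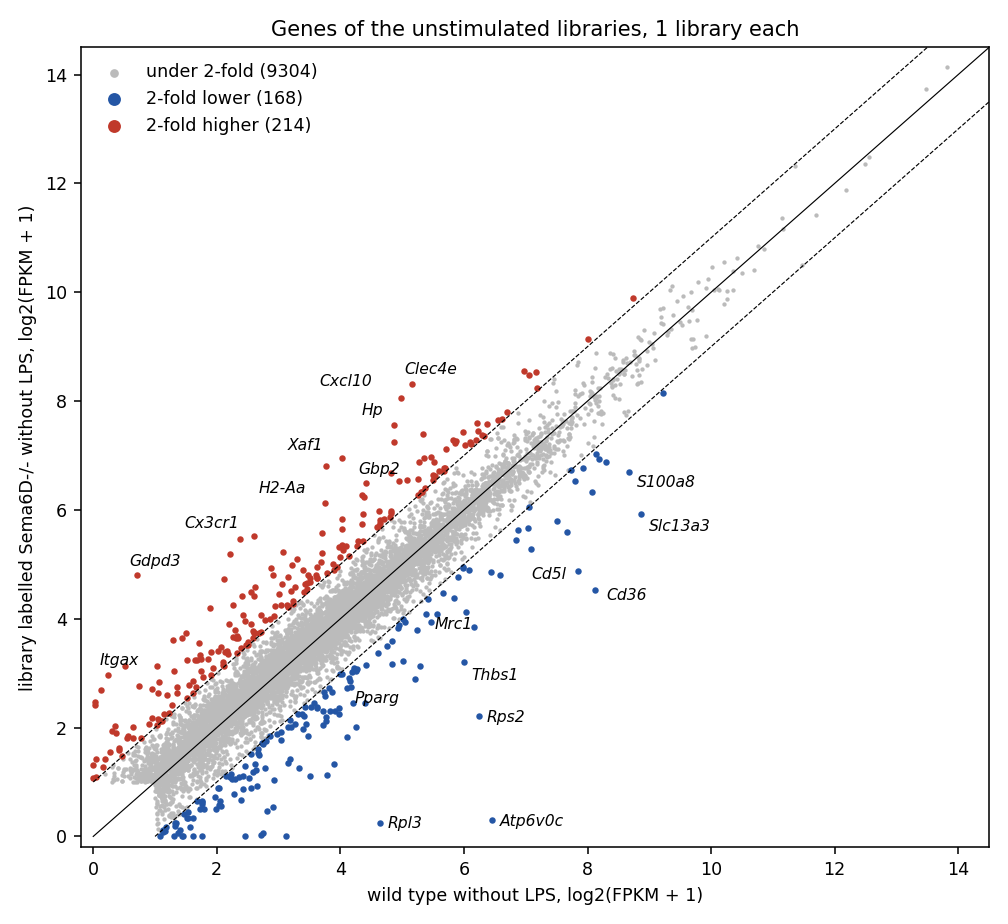
Each point is 1 of the 9686 genes, with log2(FPKM + 1) in the unstimulated wild-type library on the x axis and in the unstimulated library labelled Sema6D-/- on the y axis. Dashed lines mark 2-fold; 214 genes lie above them (red) and 168 below (blue), and Atp6v0c, Rpl3 and Rps2 lie farthest below.

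The highest log2 ratio with 1 FPKM added, among genes of at least 5 FPKM, belonged to Gdpd3, a lysophospholipase D, at 0.636 FPKM in wild type and 26.8 FPKM in the labelled library. It was about as far apart with LPS, at 0.515 and 29.3 FPKM. Clec4e, which encodes the glycolipid receptor Mincle, was at 34.6 FPKM in wild type and 318 FPKM in the labelled library, an FPKM ratio, with nothing added, of 9.19 (interval 8.81 to 9.59). Gpr84, a receptor for medium-chain fatty acids, went from 12.6 FPKM in wild type to 112 FPKM in the labelled library. In each of these 3 genes the labelled library was also the higher one with LPS. Hp, the haemoglobin-binding plasma protein haptoglobin, was at 28.3 FPKM in wild type and 189 FPKM in the labelled library. Epas1, which encodes HIF-2 alpha, was nearly silent in wild type at 0.427 FPKM and stood at 7.73 FPKM in the labelled library. The fragments of Depp1 were few in wild type, 3 against 137, and its FPKM ratio of 62.6, above the 42.1 of Gdpd3, has an interval of 21.1 to 305. With 1 FPKM added the log2 ratios were 4.09 for Gdpd3 and 2.57 for Depp1. Ly6i, a surface protein of the Ly6 family, stood at 4.17 and 43.1 FPKM in wild type and the labelled library. Of the 20 highest genes by this rule, 18 were also at least 2-fold higher in the labelled library with LPS.

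Interferon-stimulated genes were higher as a group in the labelled library. Of the 64 measured of 68 listed, 62 had a ratio above 0, 24 were at least 2-fold higher and none was 2-fold lower in the labelled library, against 2.21% and 1.73% of all genes, and the median log2 ratio was 0.83 against 0.04. A separate list of PYHIN DNA sensors had 2 of 9 measured genes at least 2-fold higher and 1, Ifi208, at least 2-fold lower. The lists were drawn up with earlier results of these data known, so such counts describe and do not test. Xaf1, a partner of the apoptosis inhibitor XIAP, led the interferon-stimulated list with 15.3 FPKM in wild type and 123 FPKM in the labelled library. The guanylate-binding proteins, GTPases that attack vacuoles of intracellular microbes, followed: Gbp2 stood at 20.3 FPKM in wild type and 88.9 FPKM in the labelled library. Gbp5, at 2.70 and 17.3 FPKM, had an FPKM ratio of 6.42 (interval 5.57 to 7.42). Their promoters are among those printed above.

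Other members of the list have antiviral roles. Ifit1, which binds foreign RNA ends, was at 55.6 FPKM in wild type and 155 FPKM in the labelled library. Rsad2, the antiviral enzyme viperin, was at 67.4 and 151 FPKM. Isg15, a ubiquitin-like modifier, was at 96.9 and 204 FPKM, and has a near-identical copy elsewhere in the transcript set. Stat2 and Irf9, subunits of ISGF3, had log2 ratios of 1.00 and 0.17. Irf7, the amplifier of interferon transcription, stood at 227 FPKM in wild type and 404 FPKM in the labelled library, a log2 ratio of 0.83 that stays under 2-fold. The 2 genes with a ratio below 0 were Trim25 at −0.31 and Ifi44 at −0.08. With LPS, where the genes of the list are at far higher levels, 3 were at least 2-fold higher in the labelled library, none was lower and the median log2 ratio was 0.49. Of the 20 measured genes of a separate list of interferon signalling, 1 was 2-fold higher, the transcription factor Irf1 (25.2 and 55.9 FPKM). None was 2-fold lower. Stat2, also at least 2-fold higher, is not among those 20.

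**Figure D2:**
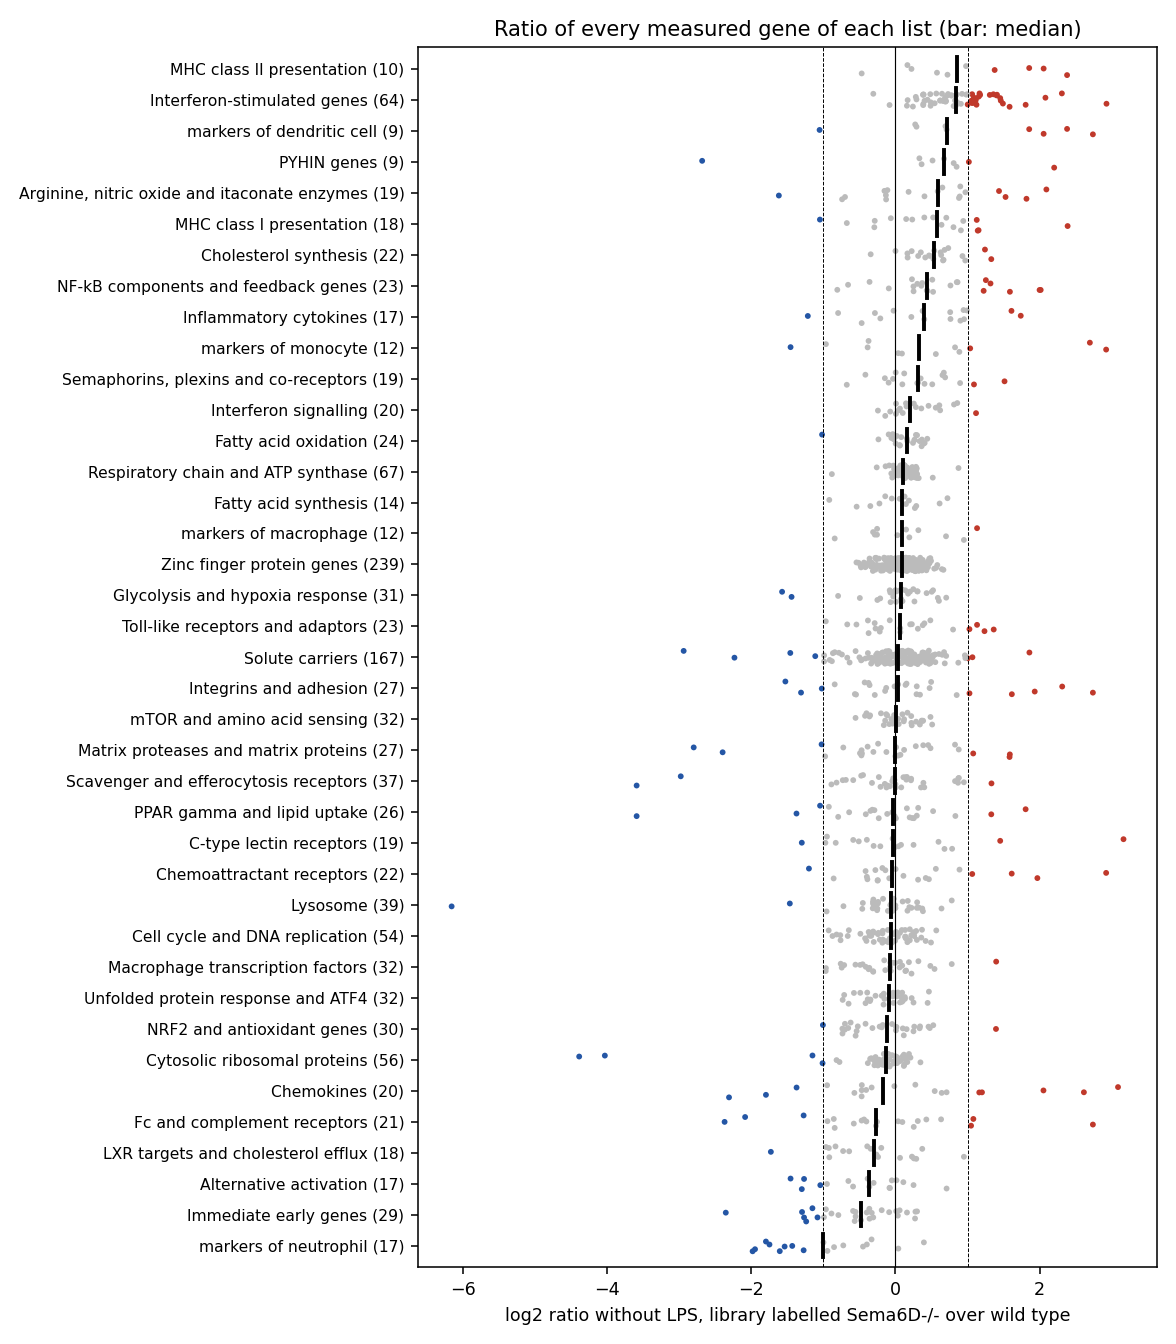
Each row is a gene list with at least 9 measured members (number in parentheses), each point is 1 gene's log2 ratio without LPS, library labelled Sema6D-/- over wild type, and the black bar is the median. Red and blue points are at least 2-fold higher or lower; the lists of MHC class II and interferon-stimulated genes have the highest medians, 0.85 and 0.83, and the neutrophil markers the lowest, −0.997.

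Chemokines, the attractants of leukocytes, divided into 5 genes at least 2-fold higher and 3 lower of the 20 measured, with a median log2 ratio of −0.17. Those are 25% and 15%, against 2.21% and 1.73% of all genes. Cxcl10, an interferon-induced attractant of T cells, was at 30.5 FPKM in wild type and 267 FPKM in the labelled library, an FPKM ratio of 8.74 (interval 8.13 to 9.41). Ccl5 was at 39.5 and 167 FPKM in the same order. The monocyte attractants lay the other way: Ccl7 stood at 70.7 FPKM in wild type and 13.5 FPKM in the labelled library. Ccl2, its neighbour in the genome, stood at 130.5 and 49.8 FPKM. With LPS the Ccl2 levels were 805 FPKM in wild type and 894 FPKM in the labelled library, a log2 ratio of 0.15. Of 17 measured cytokines 2 were at least 2-fold higher, Il1b, the pyrogenic interleukin 1 beta, and Tnfsf10, the death ligand TRAIL. Il1b was at 7.88 FPKM in wild type and 26.1 FPKM in the labelled library. The only one at least 2-fold lower was Il10, the anti-inflammatory interleukin 10, at 13.5 and 5.26 FPKM. Tnf was at 31.5 FPKM in wild type and 54.2 FPKM in the labelled library, which stays under 2-fold, and Il6 was close to the limit of 1 FPKM at 0.759 and 1.28 FPKM.

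Components and feedback genes of NF-kB, the main transcription factor downstream of LPS, were higher where they passed 2-fold. Of 23 measured, 6 were at least 2-fold higher (26.1%, against 2.21% of all genes) and none was lower. The median log2 ratio was 0.44. Traf1, an adaptor of TNF receptors, was at 4.31 FPKM in wild type and 20.5 FPKM in the labelled library. Nfkbie, an inhibitor of NF-kB, was at 3.78 and 18.1 FPKM. Relb and Nfkb2, partners in the non-canonical arm, had log2 ratios of 1.59 and 1.32. Among 23 Toll-like receptor genes and adaptors 4 were at least 2-fold higher (17.4%, against 2.21% of all genes) and none lower, with a median log2 ratio of 0.07 against 0.04. Tlr2, the receptor for bacterial lipopeptides, was at 57.0 FPKM in wild type and 148 FPKM in the labelled library. Cd14, which hands LPS to its receptor, was at 257 and 565 FPKM. That receptor, Tlr4, lay the other way, at 22.1 FPKM in wild type and 13.6 FPKM in the labelled library, under 2-fold. Of the 23 genes, 13 had a ratio above 0 and 10 a ratio below 0. Acod1, the enzyme that makes itaconate, was at 131 FPKM in wild type and 357 FPKM in the labelled library. It stood in a list of 19 measured genes headed by arginine, nitric oxide and itaconate enzymes, of which 4 were at least 2-fold higher and 1, Odc1, was lower. Of the other higher members, Ass1 serves arginine synthesis, while Ptges makes prostaglandin E and Ch25h an oxysterol; Ptges and Ch25h fall outside that heading.

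Genes of MHC class II, which shows peptides to helper T cells, were higher together. Of 10 measured, 4 passed 2-fold (40%, against 2.21% of all genes) and none was lower, with a median log2 ratio of 0.85. H2-Aa was at 12.5 FPKM in wild type and 69.2 FPKM in the labelled library. H2-Ab1 was at 19.8 and 74.4 FPKM, and H2-Eb1 at 6.33 and 29.5 FPKM. Cd74, the invariant chain that guards the class II groove, was at 143 FPKM in wild type and 372 FPKM in the labelled library, an FPKM ratio of 2.61 (interval 2.52 to 2.70). In the MHC class I group 4 of 18 were at least 2-fold higher and 1 lower. H2-T24, a non-classical class I gene, stood at 28.2 and 152 FPKM. H2-Q6 and H2-Q8 share near-identical sequence, and their values moved in opposite ways: H2-Q6 was at 1.19 FPKM in wild type and 0.0608 FPKM in the labelled library, and H2-Q8 at 0.0148 and 4.53 FPKM. The sum of the pair had a log2 ratio of 1.34, so H2-Q6 alone gives the opposite direction to the pair.

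Surface receptors and integrins, which set how macrophages attach and sense, moved in both directions. Itgax, which encodes CD11c, was nearly silent in wild type at 0.178 FPKM (21 fragments) and stood at 6.86 FPKM (584 fragments) in the labelled library. Cx3cr1, the fractalkine receptor, was at 5.07 FPKM in wild type and 45.0 FPKM in the labelled library. With LPS the Cx3cr1 levels were 2.44 and 5.15 FPKM. Among 27 genes of integrins and adhesion, 5 passed 2-fold upward and 3 downward. Itga4, the alpha chain of VLA-4, was at 15.4 FPKM in wild type and 49.2 FPKM in the labelled library, while Itga6, a laminin receptor chain, was at 43.1 and 14.3 FPKM. Among 21 Fc and complement genes 3 were higher and 3 lower. Cd55, which protects cells from complement, was at 6.54 FPKM in wild type and 0.461 FPKM in the labelled library. Fcgr4, an activating antibody receptor, was at 222 and 91.4 FPKM.

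**Figure D3:**
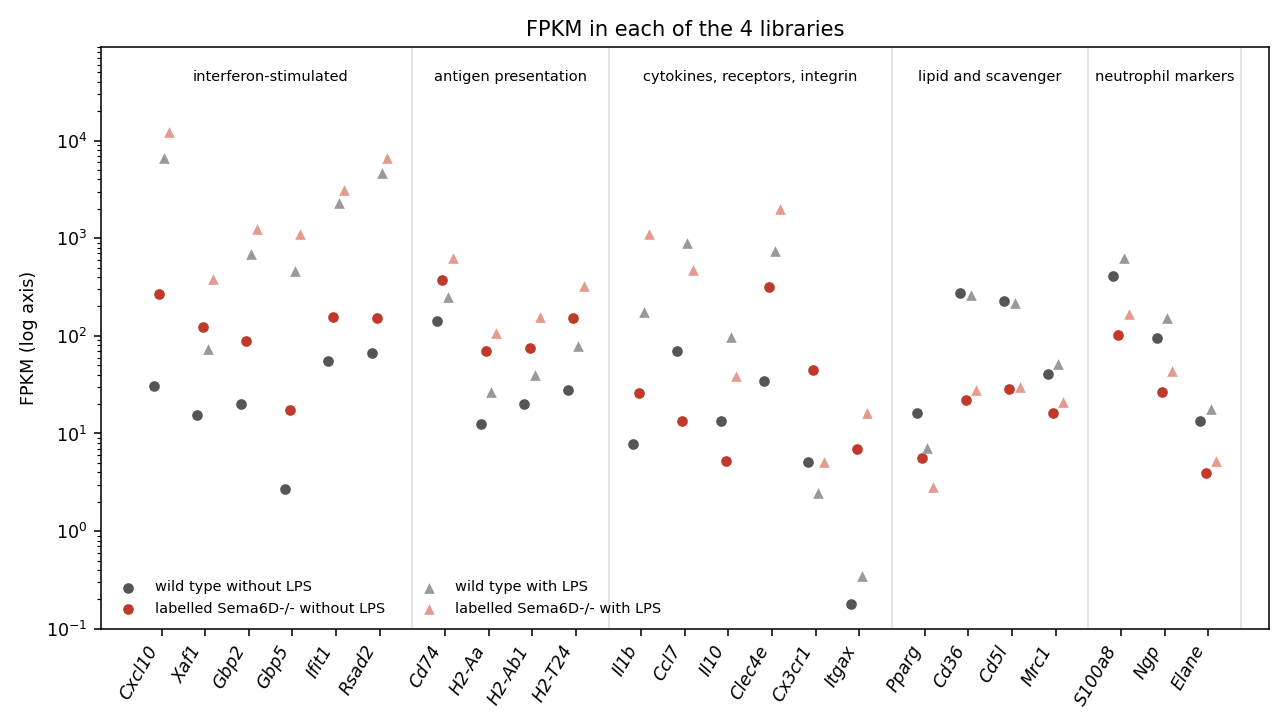
FPKM on a log axis of 23 named genes in each of the 4 libraries, 1 point per library and no error bars; circles are without LPS and triangles with LPS, grey for wild type and red for the libraries labelled Sema6D-/-. Without LPS, Cd36 stands at 277 FPKM in wild type and 22.1 FPKM in the labelled library, and Cxcl10 at 30.5 and 267 FPKM.

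Lipid uptake showed single large differences without a shift of its list. Pparg, the nuclear receptor named in the study's title, was at 16.2 FPKM in wild type and 5.66 FPKM in the labelled library, 2.87 times lower (interval 2.49 to 3.32). Cd36, its target and the receptor for oxidized lipoproteins and fatty acids, was at 277 FPKM in wild type and 22.1 FPKM in the labelled library, 12.5 times lower (interval 11.9 to 13.2). Over the 26 measured genes of PPAR gamma and lipid uptake, 3 were at least 2-fold lower and 2 higher, and the median log2 ratio was −0.04. Among the higher genes was Acsl1, which activates fatty acids, at 15.3 and 56.1 FPKM. Cd5l, a secreted protein of tissue macrophages, was at 229 FPKM in wild type and 28.3 FPKM in the labelled library. Slc13a3, a carrier of dicarboxylates, was at 465 and 59.9 FPKM, and the matricellular protein gene Thbs1 at 62.9 and 8.20 FPKM. Each of these was also at least 2-fold apart in the same direction with LPS.

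Sterol genes differed by role. Of 22 measured genes of cholesterol synthesis and uptake, 21 had a ratio above 0, 2 were at least 2-fold higher, none was lower, and the median log2 ratio was 0.53. Stard4, a carrier of sterols between membranes and among the higher genes, stood at 3.48 FPKM in wild type and 9.58 FPKM in the labelled library. Srebf2, which encodes the master factor of this pathway, was at 34.9 and 56.6 FPKM, under 2-fold. Of 18 LXR targets and efflux genes, 6 had a ratio above 0, 1 was at least 2-fold lower and none was higher, with a median of −0.30. That gene was the transporter Abca9, at 4.23 FPKM in wild type and 0.581 FPKM in the labelled library. The efflux pump Abca1 was at 27.7 and 15.1 FPKM, and Apoe, the lipoprotein of cholesterol export, at 2829 and 1451 FPKM, both under 2-fold. None of 14 fatty acid synthesis genes passed 2-fold either way, and 1 of 24 fatty acid oxidation genes did, Acadl at 31.4 and 15.0 FPKM.

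Markers of alternative activation were lower where they passed 2-fold with 1 FPKM added. Of 17 measured, 4 were at least 2-fold lower (23.5%, against 1.73% of all genes), namely Mrc1, Chil3, Folr2 and Myc, and none was higher. The median log2 ratio was −0.36, and 4 of the 17 had a ratio above 0. The highest of these was Ccl22, at 0.443 FPKM in wild type and 1.36 FPKM in the labelled library. Its FPKM ratio with nothing added was 3.07 (interval 1.93 to 5.01), and with LPS its log2 ratio was 2.15. Mrc1, the mannose receptor CD206, was at 41.0 FPKM in wild type and 16.1 FPKM in the labelled library. Chil3, the lectin Ym1, was at 37.0 and 12.9 FPKM, and it also counts as a monocyte marker. The classical markers Arg1 and Retnla gave no reading: Arg1 was at 0.635 and 0.105 FPKM, below the limit, and every library listed Retnla at 0. Immediate early genes, the first transcripts after growth factor or stress signals, were lower too. Of 29, 6 were at least 2-fold lower (20.7%, against 1.73% of all genes) and none was higher, with a median of −0.48. Fosl1, a subunit of AP-1, was at 6.05 FPKM in wild type and 0.382 FPKM in the labelled library. Egr1 was at 12.4 and 5.33 FPKM, and Myc, the growth regulator, at 20.3 and 7.84 FPKM. Myc is counted among the lower genes of both lists. Fos itself did not share the direction, with a log2 ratio of 0.30.

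The housekeeping pathways of metabolism and growth showed few differences of that size. Of 32 measured genes of mTOR and amino acid sensing, none was 2-fold apart with 1 FPKM added. The median log2 ratio was 0.01, which turned to −0.02 when ratios were centred on the median of well-measured genes. The lowest, Rragd, was at 1.68 FPKM in wild type and 0.828 FPKM in the labelled library, 2.03 times lower with nothing added (interval 1.59 to 2.62). Mtor, the kinase, was at 4.22 FPKM in wild type and 5.09 FPKM in the labelled library, and Rptor, which recruits its substrates, at 8.58 and 9.76 FPKM. None of 67 respiratory chain and ATP synthase genes, 54 cell cycle genes, 32 genes of the unfolded protein response or 239 zinc finger genes passed 2-fold with 1 FPKM added. Among 31 genes of glycolysis and the hypoxia response 2 were lower, the stress-induced Ndrg1 at 85.5 and 28.1 FPKM and the carbonic anhydrase gene Car9, listed at 1.71 FPKM in wild type and 0 in the labelled library. With 96 fragments in wild type, Car9 was at least 23.2-fold lower, a bound that sets the count of 0 at 3 fragments. Of 39 lysosomal genes 2 were lower, Glb1, which encodes beta-galactosidase, at 56.5 and 19.9 FPKM, and Atp6v0c.

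Semaphorins and their receptors gave 2 of 19 measured genes at least 2-fold higher and none lower, with a median log2 ratio of 0.32. Plxnd1, a receptor for class 3 semaphorins, was at 43.2 FPKM in wild type and 125 FPKM in the labelled library. Sema4d was at 72.1 and 155 FPKM. Plxna1, a class A plexin and receptor of Sema6D, was at 39.8 and 57.1 FPKM, and Plxna2 at 2.41 and 2.72 FPKM, both under 2-fold. Plxna4, another class A plexin, was at 0.0183 and 0.0144 FPKM and is not a member.

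Around Sema6d on chromosome 2, the 20 nearest measured genes on each side were examined. Of the 40, 2 were at least 2-fold higher and 1 lower, where 3.94% of all genes passed in either direction, and their median log2 ratio was 0.06 against 0.04. Slc24a5, the next measured gene on one side and an ion exchanger, was at 3.62 FPKM in wild type and 1.14 FPKM in the labelled library. Gatm, which makes the precursor of creatine, was at 19.4 and 52.5 FPKM. Slc28a2b, a nucleoside carrier gene beside it, was listed at 0 in wild type and at 1.097 FPKM (86 fragments) in the labelled library, at least 39.7-fold higher. It has a near-identical copy. Slc28a2, the measured gene on its other side, was at 5.83 FPKM in wild type and 7.58 FPKM in the labelled library. Slc28a2b and Slc28a2 were not summed.

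**Figure D4:**
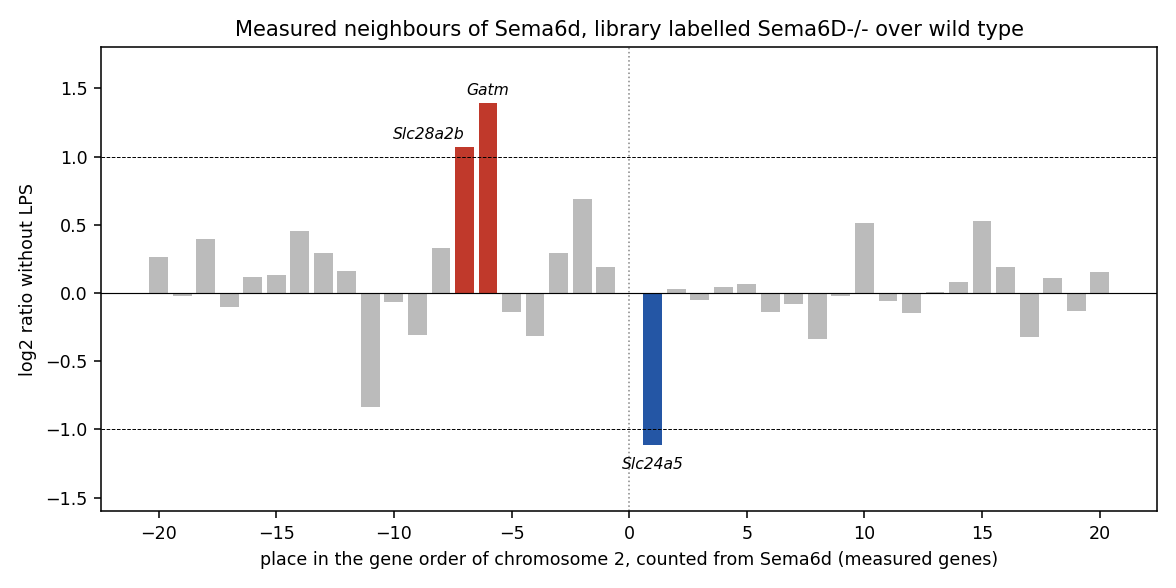
Bars give the log2 ratio without LPS, library labelled Sema6D-/- over wild type, of the 20 nearest measured genes on each side of Sema6d, in gene order. Slc28a2b and Gatm are at least 2-fold higher, Slc24a5 is at least 2-fold lower, and the others lie between the dashed lines.

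Over all autosomes, genes past 2-fold stood side by side in 27 places, 18 of them higher and 9 lower. They held 60 of the 382 genes past 2-fold. How many such places would arise with 3.94% of all genes past 2-fold was not worked out. The order was that of the genes compared, skipping unmeasured genes, and the pair Slc28a2b and Gatm is included. The longest was Ifit2, Ifit3, Ifit1bl1, Ifit3b and Ifit1 on chromosome 19, followed by Gbp5, Gbp7, Gbp3 and Gbp2 on chromosome 3 and H2-Ab1, H2-Aa and H2-Eb1 on chromosome 17. Among the 9 lower pairs were Ccl2 with Ccl7, S100a8 with S100a9, Prtn3 with Elane, Fcrls with Cd5l and the metal-binding Mt1 with Mt2. By chromosome the share past 2-fold either way ran from 2.06% on chromosome 12 to 7.06% on chromosome 17, the chromosome of the MHC, where 23 genes were higher and 14 lower of 524.

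The genes with the lowest ratios included several with near-identical copies, beside Cd36, Cd5l, Slc13a3 and Thbs1, which have none. Atp6v0c, the proton-conducting ring of the vacuolar ATPase, was at 87.0 FPKM in wild type (2659 fragments) and 0.235 FPKM in the labelled library (5 fragments). Rpl3, a core protein of the large ribosomal subunit, was at 23.9 and 0.193 FPKM. Rps2, of the small subunit, was at 74.8 and 3.64 FPKM. All 3 have near-identical copies in the transcript set, which for these genes are pseudogenes, 2 for Atp6v0c, 7 for Rpl3 and 31 for Rps2, and the values with LPS were about as far apart. The nuclear import receptor gene Kpna2 had 316 fragments in wild type and 1 in the labelled library. That is a wild-type excess of 228 times with an interval of 40.7 to 8932, which covers counting error only. Kpna2 too has near-identical copies, 4 in number. Of the 20 lowest genes, 9 had such a copy, against 1 of the 20 highest. Over all genes searched 5.97% had one (577 of 9663), against 7.08% of the higher and 13.1% of the lower genes.

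Where a copy is itself a gene in the files, the pair can be read together. The polyamine enzyme genes Amd1 and Amd2 traded places: Amd1 was at 0.0170 FPKM in wild type and 4.35 FPKM in the labelled library, and Amd2 at 6.604 and 1.05 FPKM. The sum of the pair had a log2 ratio of −0.25, well under 2-fold. The pairs given here were chosen by hand, and Amd1 and Amd2 after their values were seen. The PYHIN DNA sensors Ifi208 and Ifi205 also lay in opposite directions, with Ifi208 at 5.72 and 0.0480 FPKM and Ifi205 at 1.72 and 11.5 FPKM in wild type and the labelled library, and a log2 ratio of 0.57 for the sum. Ifi205 has 2 near-identical copies, so the sum of this pair need not hold all copies. The chromatin proteins Hmga1 and Hmga1b were lower together, Hmga1 at 16.2 FPKM in wild type and 2.53 FPKM in the labelled library and Hmga1b at 7.66 FPKM and 0, with a log2 ratio of −2.82 for the sum. How the authors' counting divided fragments between copies was not tested.

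Markers of other cells of the marrow moved with genotype as well. Of 17 measured neutrophil markers, 8 were at least 2-fold lower in the labelled library (47.1%, against 1.73% of all genes) and none was higher. The median log2 ratio was −0.997, and the summed level of the 18 listed was 1048 FPKM in wild type and 387 FPKM in the labelled library. S100a8, a calcium-binding protein of neutrophils and monocytes, was at 409 and 103 FPKM. The granule protein Ngp was at 95.4 and 26.8 FPKM, and the granule protease Elane at 13.3 and 3.92 FPKM. Ly6g, the defining surface marker, was at 0.450 and 0.310 FPKM. Fewer cells of a type and less RNA per cell cannot be told apart in such libraries, and the part of neutrophil RNA in the lower genes was not tested.

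Monocyte and dendritic cell markers leaned the other way. Of 12 measured monocyte markers 3 were at least 2-fold higher (Cx3cr1, Hp and Ms4a4c) and 1, Chil3, was lower, and the sum of the 14 listed was 385 FPKM in wild type and 722 FPKM in the labelled library. Of 9 measured dendritic cell markers 4 were higher, Itgax and 3 class II genes that macrophages can also express, and 1, Batf3, was lower. The sum of all 18 listed was 511 FPKM in wild type and 756 FPKM in the labelled library. Bst2 held most of that sum in both, at 458 and 561 FPKM, a log2 ratio of 0.29. Within the monocyte sum, Hp stood at 28.3 and 189 FPKM in the same order. Of markers that define dendritic cells more strictly, Flt3 was at 0.290 and 0.245 FPKM and Zbtb46 at 0.0536 and 0.0564 FPKM. Clec9a was at 0.0708 and 0.0813 FPKM. Ccl17, which is also in the list of alternative activation, was listed at 0 in both. Xcr1, the chemokine receptor of cross-presenting dendritic cells, was at 0.266 FPKM (35 fragments) in wild type and 1.05 FPKM (99 fragments) in the labelled library, an FPKM ratio of 3.94 (interval 2.65 to 5.98) that stays under 2-fold with 1 FPKM added. The part of dendritic cell RNA in the higher genes was not tested. Of 6 osteoclast markers 1, Acp5, was lower, and of 2 measured lymphocyte markers the B-cell receptor chain Cd79b was lower, at 12.1 FPKM in wild type and 3.13 FPKM in the labelled library. No measured marker of the erythroid and megakaryocyte, progenitor, stromal or mast cell lists passed 2-fold with 1 FPKM added. Few were measured: 2 of 16, 3 of 12, 4 of 20 and 3 of 16 in that order. With nothing added, Siglecf of the mast cell list was 4.86 times lower (interval 2.69 to 9.52). Cebpe of the progenitor list was 2.57 times lower (interval 1.55 to 4.45). Of the 3 measured genes in each list, 0 and 2 had a ratio above 0.

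The other pair of libraries, with LPS, gives a second reading of the genotype from separate libraries. Of the 214 genes at least 2-fold higher without LPS, 95 were also at least 2-fold higher with LPS, which is 44.4% of the former and 43.4% of the 219 that were higher with LPS. Of the 168 lower genes, 113 were lower in both, 67.3% of the former and 44.7% of the 253 lower with LPS. Among all 9686 genes, 2.26% were higher and 2.61% lower with LPS, 4.87% in all. A ratio of the same sign was found for 210 of the 214 higher genes (98.1%) and for 162 of the 168 lower genes (96.4%). The share of the same sign over all genes was not counted. The medians of the log2 ratio were 1.28 without and 0.92 with LPS for the higher genes, and −1.27 and −1.21 for the lower genes. H2-Q6 alone was past 2-fold in opposite directions. The pairs share no library, but libraries of a genotype share its sex-linked difference and may share mice, which the labels do not say.

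**Figure D5:**
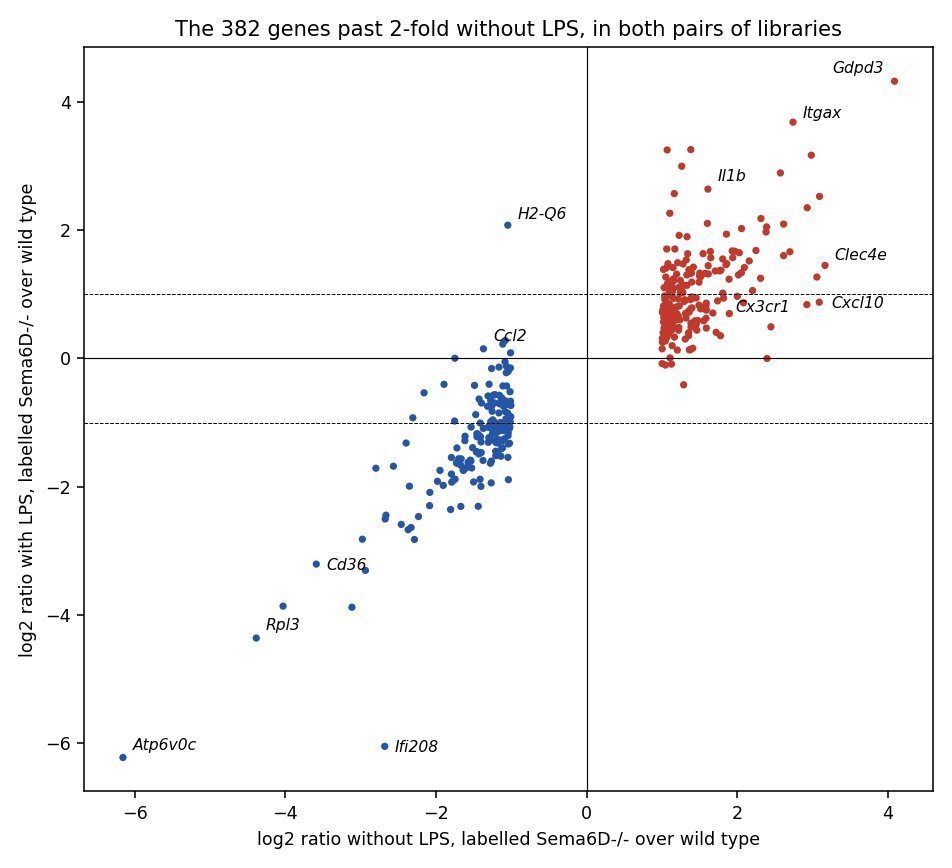
Each point is 1 of the 382 genes past 2-fold without LPS, with its log2 ratio (library labelled Sema6D-/- over wild type) without LPS on the x axis and with LPS on the y axis; dashed lines mark 2-fold with LPS. Nearly all points keep their sign, Cd36 and Atp6v0c are about as low in both, and H2-Q6 stands alone at the upper left.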

How the data were processed

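Polyadenylated RNA of 4 macrophage libraries was made with a stranded kit, per the labels' protocols, which name Trizol for the RNA extraction where the series text names an RNeasy kit. The deposited tables give FPKM per RefSeq transcript, and per the submitters' processing notes the mouse build was mm9 and the tools included Cuffnorm 2.2.1, SAMtools 0.1.19, TopHat2 2.0.13 and Bowtie2 2.2.3. Other settings are not given in the sources used here.

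Of 34487 transcripts, 34159 were named through RefSeq and 170 through GENCODE, and 158 stayed without a name. FPKM was summed per gene symbol, and the log2 ratio was log2((FPKM + 1)/(FPKM + 1)), labelled Sema6D-/- over wild type, for protein-coding autosomal genes with at least 1 FPKM in either unstimulated library. A pseudocount of 1 understates the ratio of low genes. Several transcripts were summed for 3160 of the genes. A gene counted as higher or lower at 2-fold, with no test, since each group has 1 library.

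In all 4 libraries 73.9% to 75.8% of low values lay within 0.1 of a whole number of fragments, where 20% would by chance, and the step gave each library's depth and each gene's fragments (estimated for 9625 of the 9686 genes). Intervals are Clopper-Pearson on the fragment shares. Near-identical copies were other genes with a transcript at 95% identity or more over 30% or more of the length (BLAST 2.17.0). Work was done in Python 3.11.15 with pandas 2.3.3, numpy 2.4.6 and scipy 1.17.1, and the ratio, depth and interval steps were tested on simulated data.

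Genes were named by rule: the 20 highest and 20 lowest ratios at 5 FPKM or more, genes at 5 FPKM or more in one library and under 0.5 FPKM in the other, up to 8 members of each of 46 gene lists by size of ratio, genes of the Sema6D and PPAR gamma pathway, neighbours of Sema6d, and neighbouring genes past 2-fold. Other list members stand beside them as examples of a role, chosen with their values known. The genes and lists were chosen with earlier results of these data known. Alternatives covered the scaling, pseudocount, filter, transcript choice, gene classes and the fold. Leaving out genes with a near-identical copy was added after seeing the data. A few single genes are not reported here, though the counts of their lists include them.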

Additional observations from a re-analysis of the deposited data

Results flagged for a closer look

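H2-Q6, an MHC class I gene, was 1 gene past 2-fold in opposite directions in the unstimulated and stimulated pairs. Its log2 ratio, labelled Sema6D-/- over wild type, was −1.05 without LPS and 2.08 with LPS. The difference between the states was not tested, with 1 library per group. Its near-identical partner H2-Q8 had log2 ratios of 2.45 without LPS and 0.49 with LPS.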

How the results depend on the processing

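The counts of 214 higher and 168 lower genes depend most on the pseudocount and the fold. With a pseudocount of 0.1 they were 346 and 286, with a pseudocount of 5 they were 99 and 60, at a fold of 1.5 they were 651 and 512, and at a fold of 4 they were 28 and 23. Genes with 1 listed transcript gave 143 and 110, of fewer genes compared (6526). Of the 382 genes, 370 kept their call and direction when centred on the median or on the trimmed mean, 378 after scaling to a common total, and 159 at a pseudocount of 5. Taking the leading transcript of each gene gave 320 and 240, and leaving out genes with a near-identical copy gave 199 and 146. Cox18, with a log2 ratio of 1.07, was at −1.61 by its leading transcript alone, and the cause was not tested. No list median of at least 0.5 either way changed its sign in the alternatives run. The medians of mTOR genes (0.01) and of 3 progenitor markers (0.01) turned to −0.02 when centred on the median. No paired analysis was possible because each group has 1 library. Counting error limits low genes: at 1 to 1.5 FPKM a gene rests on a median of 66.3 fragments in the library labelled Sema6D-/-.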

Other observations

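Ugt1a6b, a glucuronosyltransferase that the accounts above leave out, was among the 20 highest genes, at 3.64 FPKM in wild type and 35.6 FPKM in the library labelled Sema6D-/- without LPS. Its neighbour Ugt1a6a was at 1.42 and 4.35 FPKM in the same order, a log2 ratio of 1.15. By mean level, the share of genes at least 2-fold higher was 1.83% under 2 FPKM (18 of 982), 1.89% at 2 to 10 FPKM, 1.98% at 10 to 50 FPKM, 4.63% at 50 to 200 FPKM (44 of 950) and 3.06% at 200 FPKM and over (6 of 196). Genes at least 2-fold lower made up 3.46%, 1.89%, 1.12%, 1.58% and 3.06% of the same classes.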
